A study of Mus musculus with 6 samples.

Results

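The cytosolic ribosomal proteins are the proteins that, with ribosomal RNA, build the 40S and 60S subunits of the ribosomes of the cytosol. Their genes were chosen by symbol (Rps, Rpl or Rplp followed by a number, and Rpsa, without pseudogenes), with an estimated count of at least 10 in at least 3 libraries. This left 81 of the 17469 genes in the deposited count table, 32 of the 40S and 49 of the 60S subunit. A further pair of matching genes, Rpl3l and Rpl32l, had at most 2.02 estimated counts in any library and was left out.

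RNA-seq was done on tdTomato+ cells sorted from cultures of BMSCs, which are marrow cells selected by their attachment to the dish, taken from the femurs and tibias of 6-month-old mice on a C57BL/6 background. The control libraries came from Ocn-Cre;Ai9 mice, which carry Cre recombinase under the osteocalcin promoter and the Ai9 allele, a tdTomato reporter that needs Cre to remove a stop cassette. The TgAPPsweOCN;Ai9 libraries came from mice that carry both of these alleles and LSL-hAPPswe, human APP with the Swedish mutation behind a stop cassette that the same Cre removes. There were 3 libraries of each genotype, and neither the labels nor the methods give the number of mice behind a library, so p-values measure only the spread between these libraries. In bulk RNA, fewer cells of a type and less RNA per cell cannot be told apart.

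Ribosomal protein mRNAs are among the most abundant in growing cells, and their products are needed in about equal numbers. Most of these mRNAs begin with a C followed by a run of pyrimidines, the 5' terminal oligopyrimidine (TOP) motif, through which mTORC1 and the RNA-binding protein Larp1 control their translation as a group. A few ribosomal protein genes have paralogs whose products can take the place of the usual protein, and several members have known roles outside the ribosome or in inherited disease of bone marrow. Control of TOP mRNAs acts mainly on translation, which RNA-seq does not measure.

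The sequence around the transcription start was searched first, because the TOP motif is the feature for which this family is known. RefSeq promoters (assembly GRCm38.p6) were matched for 61 of the 81 members, with 72 promoters. A C followed by at least 6 further C or T, starting within 25 bases of the annotated start on the gene's strand, was found in 54.2% of the members' promoters, against 26.7% of the promoters of mitochondrial ribosomal proteins, 23.4% of those of tested genes and 23.1% of all promoters in the table. The letters CGGAAG, on either strand and anywhere in the window of 300 bases, occurred in 62.5% of the members' promoters, 53.3% of those of mitochondrial ribosomal proteins, 29.8% of those of tested genes and 16.9% of all. The starts of 8 genes on which the results below turn are shown as 30 bases each, from 10 bases before the annotated start to 20 bases from it on, with the part of any such run that lies in the window in capitals.
Rps27 (chr3:90213629-90213658, minus strand): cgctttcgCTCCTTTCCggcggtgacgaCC
Rpl22l1 (chr3:28805498-28805527, plus strand): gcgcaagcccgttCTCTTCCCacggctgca
Rps12 (chr10:23787190-23787219, minus strand): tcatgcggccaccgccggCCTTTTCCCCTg
Rps9 (chr7:3704031-3704060, plus strand): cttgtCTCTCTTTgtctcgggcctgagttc
Rps27l (chr9:66946076-66946105, plus strand): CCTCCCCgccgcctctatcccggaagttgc
Rps16 (chr7:28350679-28350708, plus strand): ttctgtcgtgacgtagcactcaatgcgcct
Rpl10 (chrX:74270806-74270835, plus strand): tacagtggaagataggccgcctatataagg
Rplp0 (chr5:115559457-115559486, plus strand): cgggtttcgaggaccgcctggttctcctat
The runs of Rps27 and Rps9 spanned the annotated start, while those of Rpl22l1 and Rps12 began 3 and 8 bases after it. Rpl3 and Rps14 had no matched promoter. In Rps27l runs began 22 and 12 bases before the start, the second reaching into the window, and in Rps27 a second run began 18 bases after the start. Rps16, Rpl10 and Rplp0 had no such run within 25 bases of the start. RefSeq gives Rps27l a second start, not shown. A run was found in 1 of 3 members with a higher level in TgAPPsweOCN;Ai9 cells by the test described below, in 5 of the 7 lower members with a promoter, and in 30 of 51 members that did not pass the test. A match is a description of these letters, and no match says only that they are not in this window.

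The libraries held 19340810 to 19801060 estimated counts in control and 21677461 to 22037840 in TgAPPsweOCN;Ai9 cells, so that the smallest level taken as detectable, 3 counts, was 0.136 to 0.155 CPM (counts scaled to the library total), which covers counting error only. The sorted cells were checked against marker genes. All 15 myeloid markers were above 0 in all 6 libraries, with a median FPKM (fragments scaled by gene length and library total) of 1247 to 1296 in control and 871 to 939 in TgAPPsweOCN;Ai9 cells. Of these markers 5 rose, led by Aif1 (log2 fold change 2.04) and Adgre1 (1.89), and 8 fell, led by Mrc1 (-2.38) and Csf1r (-1.49). The median of 15 stromal and osteoblast-lineage markers was 3.04 to 4.04 FPKM over all libraries, and osteocalcin itself (Bglap), whose promoter drives the Cre, lay between 0.35 and 1.25 FPKM in control and between 0 and 0.49 in TgAPPsweOCN;Ai9 libraries. Other stromal genes were present, with mean control levels of 83.5 FPKM for Sparc, 53 for Col1a2, 45.5 for Col1a1 and 31.7 for Cxcl12. With myeloid markers far above these levels and osteocalcin near 0, the osteoblast-lineage label is not borne out for the cells as a whole, and they are called tdTomato+ cells here. The median of 15 proliferation markers was 20.4 to 22.3 FPKM in control and 7.6 to 9.98 FPKM in TgAPPsweOCN;Ai9 libraries, and all 15 fell in the test described below. The mouse App entry was higher in TgAPPsweOCN;Ai9 cells, with a log2 fold change of 0.45 (SE 0.0509, edgeR adjusted p = 7.87e-05), and it does not separate human from mouse transcripts.

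The ribosomal protein mRNAs were abundant in both genotypes. Their median level in control cells was 531 FPKM (quartiles 376 and 747), against 9.98 FPKM for all tested genes, and 73 of the 81 lay above 100 FPKM. The highest mean control levels were those of Rpl41 (1694 FPKM), the smallest protein of the ribosome, Rplp1 (1491 FPKM), Rpl10 (1179.7 FPKM), Rps26 (1109 FPKM) and Rps29 (1104 FPKM). The lowest belonged to Rpl39l (2.1 FPKM), Rps6 (10.4 FPKM) and Rpl7l1 (33.8 FPKM), of which Rpl39l and Rpl7l1 are paralogs of Rpl39 and Rpl7. Rps6, the S6 kinase substrate of the 40S subunit, is a usual part of every ribosome, yet its level was below those of all other members but Rpl39l. Its deposited counts were fractional (288.79, 307.24 and 211.6 in control and 145.68, 393.77 and 272.77 in TgAPPsweOCN;Ai9 libraries), as estimates are that can share reads among similar genes, and its level is uncertain. A count that was not a whole number in at least 1 library occurred in 19 of the 81 members (23.5%) and in 18.3% of all genes. The members' mRNAs were short, with a median length of 0.662 kb inferred from counts and FPKM, against 2.73 kb for all tested genes. The methods accepted samples above a low limit of RNA integrity. They do not give the integrity of each library, and its part in the members' values was not tested.

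As a part of the whole library, the members together took less of the counts in TgAPPsweOCN;Ai9 cells. They held 3.27%, 2.74% and 2.75% of the estimated counts in the control libraries numbered 1, 2 and 3, and 2.59%, 2.39% and 2.34% in the TgAPPsweOCN;Ai9 libraries. The groups did not overlap. The means were 2.92% ± 0.301 and 2.44% ± 0.132 (SD, n = 3 libraries each), a log2 ratio of -0.26 (two-sided p = 0.1 in an exact permutation test, below which 3 libraries against 3 cannot go). Without the control library numbered 1 the log2 ratio was -0.17. A share is scaled by the library total alone. Under that scaling the typical tested gene was lower as well, at -0.23 on the log2 scale, beside -0.25 for the typical member (medians). The lower share therefore does not set the members apart from the tested genes as a whole. The 40S members went from 1.16% ± 0.117 to 0.941% ± 0.0472 and the 60S members from 1.76% ± 0.184 to 1.5% ± 0.0851 (exact permutation p = 0.1 each). Their log2 ratios were -0.30 and -0.23, or -0.21 and -0.14 without control library 1. In FPKM, which scales by length, the members' share was 9.01% ± 0.811 in control and 7.44% ± 0.231 in TgAPPsweOCN;Ai9 libraries, also without overlap. Mitochondrial ribosomal proteins, coded by other genes, held 0.212% ± 0.00799 and 0.22% ± 0.0061 of the counts (exact permutation p = 0.2), and initiation factors 0.571% ± 0.0025 and 0.802% ± 0.0153.

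**Figure D1:**
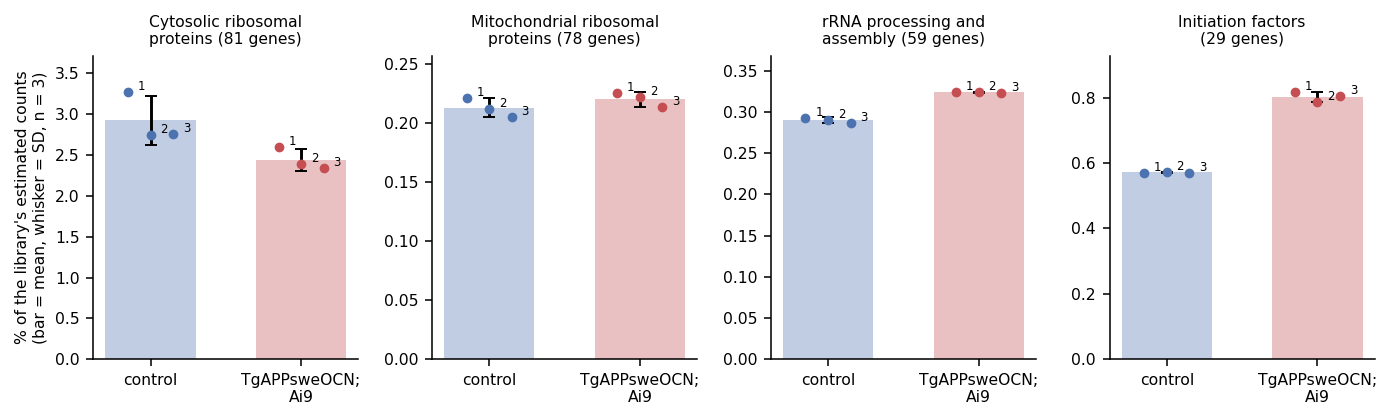
Share of each library's estimated counts (percent, vertical axes from 0) held by 4 gene lists in control and TgAPPsweOCN;Ai9 cells; points are libraries with their replicate number, bars are means and whiskers SD (n = 3). Cytosolic ribosomal proteins held 2.74% to 3.27% of the counts in control and 2.34% to 2.59% in TgAPPsweOCN;Ai9 libraries, and the initiation factors were higher in each of the latter. Scaled by the library total alone, the typical tested gene was lower in TgAPPsweOCN;Ai9 cells as well, at -0.23 (log2, median).

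The levels of the members moved together between libraries of the same genotype. In the control library numbered 1, 78 of the 81 members (96.3%) were at their highest among the controls, against 38.9% of all tested genes, and the median member lay 0.26 above the other 2 controls on the log2 scale. The TgAPPsweOCN;Ai9 library numbered 1 held the highest level for 79 members (97.5%, against 41.1% of all tested genes), with a median of 0.16 above the others. Rps27l was one of the exceptions, highest in control library 2. The coefficient of variation of the median member was 11.2% in control and 6.96% in TgAPPsweOCN;Ai9 cells, against 7.27% and 7.26% for all tested genes. Values without the control library numbered 1 are given below where they change the call of a named member, or move a called value or a count of members by more than 1.5 times.

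For the comparison of the genotypes gene by gene, counts were scaled by the TMM method, which takes most genes as unchanged, and tested with edgeR over 12701 genes, among them all 81 members. At an adjusted p at or below 0.05, 3 members rose and 10 fell in TgAPPsweOCN;Ai9 cells, while 68 did not pass the test. Of all tested genes 64.0% passed, 32.5% upward and 31.5% downward, against 16% of the members in either direction. The median log2 fold change was -0.03 over the members and -0.02 over all tested genes. No member reached a log2 fold change of 1 in either direction, a size that 8.90% of all tested genes passed upward and 9.20% downward. In 59 of 81 members (72.8%) the log2 fold change was within 0.2 of 0, against 25.9% of all tested genes. The standard errors were alike, with medians of 0.0915 for members and 0.0923 for all tested genes.

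**Figure D2:**
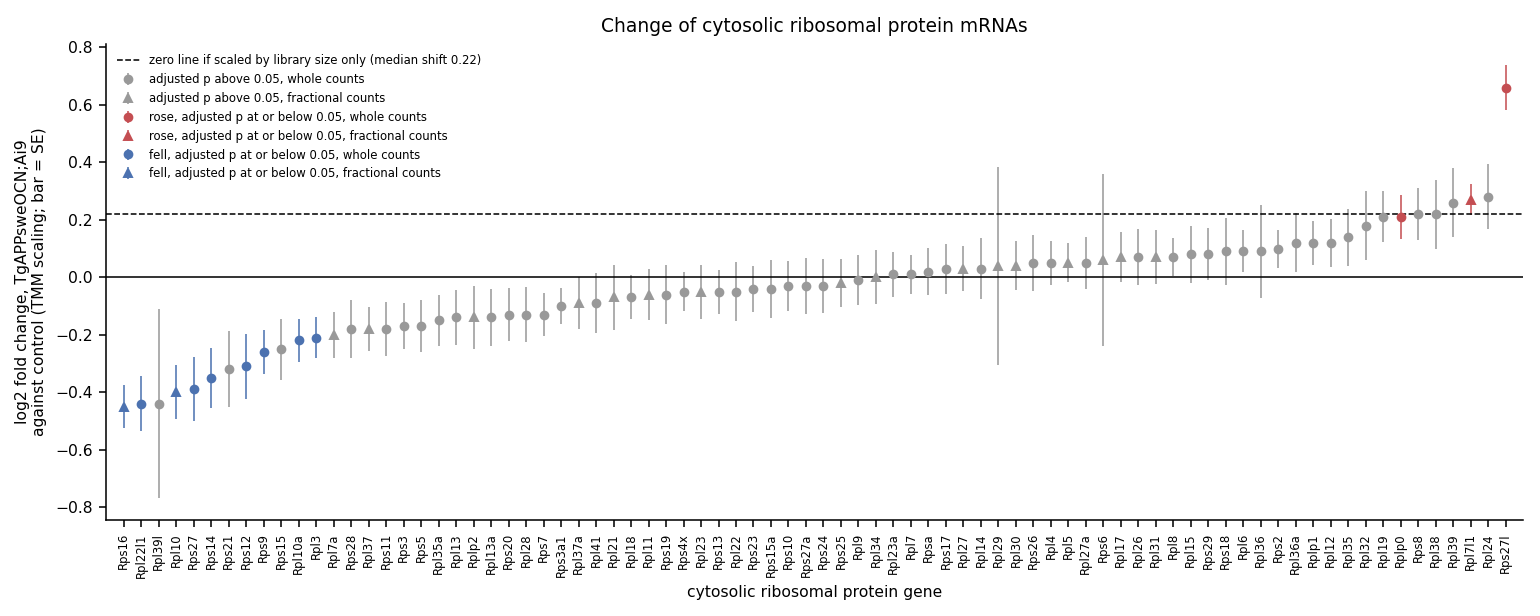
Log2 fold change of TgAPPsweOCN;Ai9 against control (vertical axis, TMM scaling, bars SE) for the members in order of size (1 that fell is not drawn), with circles for whole and triangles for fractional counts. Of the members, 3 rose and 10 fell at an adjusted p at or below 0.05. With scaling by library size only, where zero lies at the dashed line, 1 rose and 47 fell. The number of members above 0 then went from 36 to 6, with Rplp0 among those that changed sign.

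The counts depended on the scaling. Scaled by library size only, the log2 fold changes moved by a median of -0.22 for members and for all tested genes alike, and 1 member rose while 47 fell. Among all tested genes 22.1% rose and 45.9% fell on that scale. The number of members above 0 went from 36 to 6. The members' median was then -0.25, beside -0.23 for all tested genes. Without the control library numbered 1, 17 members rose and 7 fell with a median of 0.05, against 31.2% and 30.6% of the 12879 genes then tested. Across 20 alternative fits, 5 members kept their call in every one, among them Rps27l, which rose, and Rps16, Rpl22l1 and Rpl10, which fell. On TMM-scaled CPM, 3 members were higher without overlap and 13 lower, against 34.8% and 34.9% of all tested genes. The 13 called members were among these 16, and the others were Rpl7a, Rpl37 and Rps21 (edgeR adjusted p = 0.0513, 0.0629 and 0.0634), named after their values were seen.

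**Figure D3:**
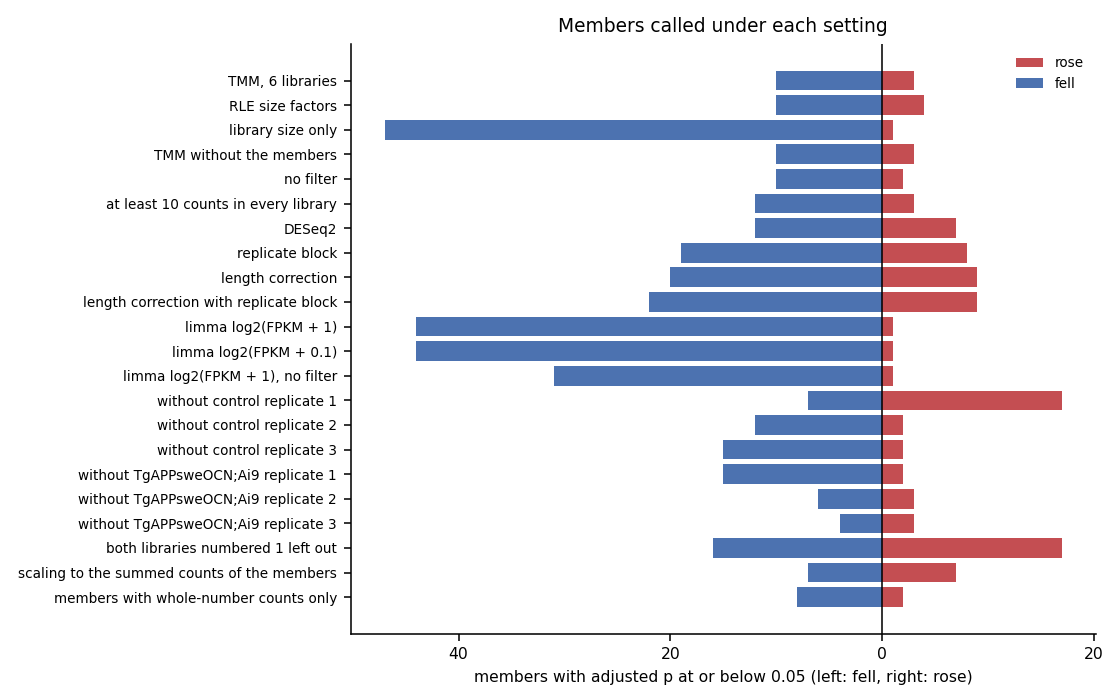
Number of members that rose (red, right) or fell (blue, left) at an adjusted p at or below 0.05 (horizontal axis) with TMM scaling and in each other setting. The counts ran from 1 to 17 for rises and from 4 to 47 for falls. The largest number of falls came with scaling by library size only. The largest number of rises came without control library 1, whether it alone or both libraries numbered 1 were left out.

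Rps27l, a paralog of the 40S protein Rps27 and a known target of p53, had the largest rise among the members (Entrez identifier 67941, chr9:66944624-66949522, GRCm38). Its level was 39.8, 40.7 and 37.6 CPM in control and 67, 63.8 and 56.1 CPM in TgAPPsweOCN;Ai9 libraries. The groups did not overlap, and the control library numbered 1 was not the highest of its group. The log2 fold change was 0.66 (SE 0.0771, edgeR adjusted p = 9.88e-05), and it lay between 0.44 and 0.74 over the 20 alternatives, the lower values with scaling by library size only or on FPKM. Rps27 itself fell (Entrez identifier 57294, chr3:90212667-90213648). It had 305, 227 and 238 CPM in control and 210, 196 and 182 CPM in TgAPPsweOCN;Ai9 libraries, a log2 fold change of -0.39 (SE 0.112, edgeR adjusted p = 0.0138). The control library numbered 1 was the highest by a wide margin, and without it the log2 fold change was -0.26 (edgeR adjusted p = 0.0125). The call was lost without TgAPPsweOCN;Ai9 library 3 (-0.34, edgeR adjusted p = 0.0646). Rps27l stood at 7.94%, 11% and 9.61% of the FPKM of Rps27 in control and at 19.6%, 20% and 18.8% in TgAPPsweOCN;Ai9 libraries, a ratio of means of 2.05 (exact permutation p = 0.1, the smallest possible). This quotient is taken within a library and does not depend on the scaling between libraries.

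Rpl22l1, the paralog of the 60S protein Rpl22, moved the other way (Entrez identifier 68028, chr3:28805508-28807424). Its level was 19.2, 16.4 and 15.9 CPM in control and 13.1, 12.4 and 12.3 CPM in TgAPPsweOCN;Ai9 libraries, without overlap. It fell by 0.44 on the log2 scale (SE 0.095, edgeR adjusted p = 0.00323). For Rpl22 the values of 172, 138 and 141 CPM in control and 162, 135 and 139 CPM in TgAPPsweOCN;Ai9 libraries overlapped, with a log2 fold change of -0.05 (SE 0.103, edgeR adjusted p = 0.707). With library size only Rpl22 fell as well (-0.26, edgeR adjusted p = 0.0393). Rpl22l1 amounted to 55% ± 1.47 of the FPKM of Rpl22 in control and to 42.4% ± 3.01 in TgAPPsweOCN;Ai9 libraries (SD, n = 3, exact permutation p = 0.1).

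The paralog of Rpl7, Rpl7l1, rose in TgAPPsweOCN;Ai9 cells with TMM and in 16 of the 20 alternatives. It holds fractional counts and is uncertain for that reason. Its level was 81.7, 79.4 and 78.2 CPM in control and 98.3, 97.5 and 93.2 CPM in TgAPPsweOCN;Ai9 libraries. The log2 fold change was 0.27 (SE 0.0532, edgeR adjusted p = 0.00202), but by library size alone it was 0.06 (edgeR adjusted p = 0.354). Rpl7 did not pass the test with TMM (log2 fold change 0.01, SE 0.0683, edgeR adjusted p = 0.906), whereas with library size only its log2 fold change was -0.21 (edgeR adjusted p = 0.0151). Rpl39l, a paralog of Rpl39 known mainly from testis, was detected at 0.726 to 1.67 CPM and overlapped between genotypes (edgeR adjusted p = 0.273). Rpl39, a small protein of the peptide exit tunnel, had 73.7 to 91.5 CPM in control and 81.5 to 109 CPM in TgAPPsweOCN;Ai9 libraries (log2 fold change 0.26, SE 0.12, edgeR adjusted p = 0.0855). Without control library 1 it rose by 0.36 (edgeR adjusted p = 0.025). Rpl36al, a paralog whose symbol falls outside the rule for members, rose by a log2 fold change of 0.47 (SE 0.0827, edgeR adjusted p = 0.00118), while Rpl36a overlapped (log2 fold change 0.12, SE 0.102, edgeR adjusted p = 0.326) and rose without control library 1 (0.24, edgeR adjusted p = 0.0083). As a percentage of Rpl36a in FPKM, Rpl36al was at 60.9 to 72.9 in control and 81.4 to 88.8 in TgAPPsweOCN;Ai9 libraries (exact permutation p = 0.1). Rpl26 and Rps4x, whose paralogs Rpl26l1 and Rps4l were not among the members, had log2 fold changes of 0.07 (SE 0.0981) and -0.05 (SE 0.0681) and did not pass the test, while without control library 1 Rpl26 rose by 0.19 (edgeR adjusted p = 0.0306) and with library size only Rps4x fell by 0.27 (edgeR adjusted p = 0.00425).

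**Figure D4:**
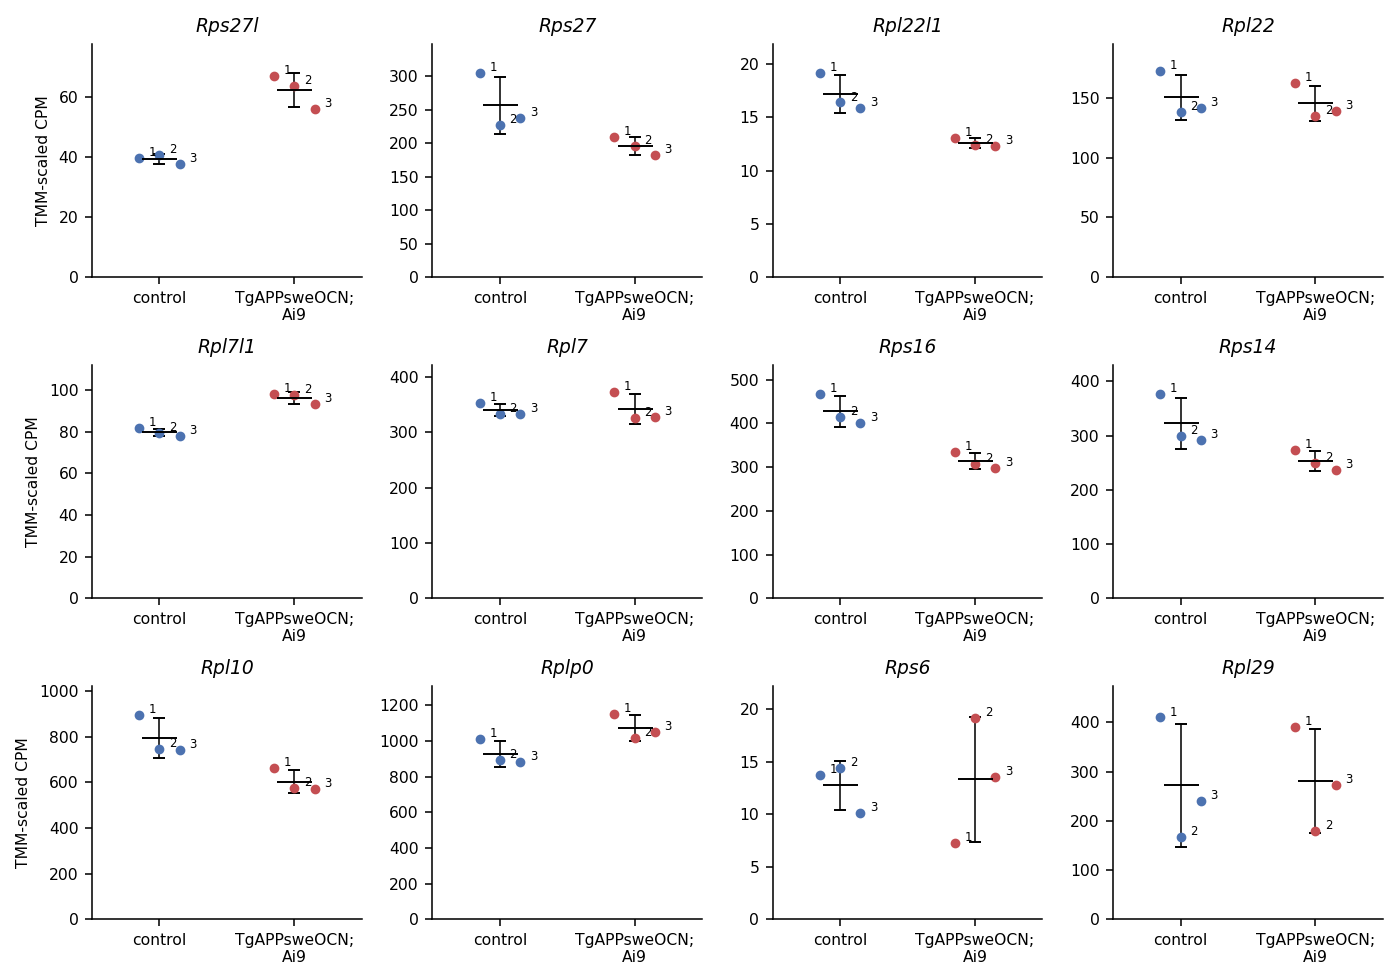
TMM-scaled CPM (vertical axes from 0) of 12 members in each control (blue) and TgAPPsweOCN;Ai9 (red) library, with replicate numbers, means and SD (n = 3). Rps27l was higher in each red library and Rps27, Rpl22l1, Rps16, Rps14 and Rpl10 lower, while Rpl22, Rpl7, Rps6 and Rpl29 overlapped; Rplp0 and Rpl7l1 were higher on this scale, and with library size only the log2 fold change of Rplp0 was -0.01.

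Among the 32 proteins of the 40S subunit 1 rose and 5 fell, their median log2 fold change was -0.05, and with library size only 1 rose and 24 fell. Without control library 1 there were 3 rises and 4 falls, and the median was 0.02. The falls numbered 8 without control library 3 or TgAPPsweOCN;Ai9 library 1, 3 without TgAPPsweOCN;Ai9 library 2 and 1 without its library 3. Over all tested genes 32.5% rose and 31.5% fell, or 22.1% and 45.9% with library size only. Rps16, a protein of the 40S head whose tail touches the tRNA, had the largest fall. It had 468, 415 and 400 CPM in control and 335, 307 and 299 CPM in TgAPPsweOCN;Ai9 libraries, without overlap. The log2 fold change was -0.45 (SE 0.0763, edgeR adjusted p = 9.19e-04), and its counts were fractional, so reads shared with near-identical copies may be divided. Rps14, whose loss from a deleted chromosome arm is linked to anemia in humans, had 377, 300 and 291 CPM in control and 273, 250 and 237 CPM in TgAPPsweOCN;Ai9 libraries. The groups lay apart and the log2 fold change was -0.35 (SE 0.104, edgeR adjusted p = 0.0175), or -0.23 (edgeR adjusted p = 0.0222) without control library 1 and -0.30 (edgeR adjusted p = 0.079) without library 3 of the other genotype. For Rps12, another 40S protein, the values were 472, 360 and 358 CPM in control and 350, 309 and 303 CPM in TgAPPsweOCN;Ai9 libraries, where the highest value was close to the lower controls. The log2 fold change of -0.31 (SE 0.114, edgeR adjusted p = 0.0426) became -0.17 (edgeR adjusted p = 0.0718) without the control library numbered 1, and it missed the threshold also when library 2 or 3 of the other genotype was left out (edgeR adjusted p = 0.1 and 0.145). Rps9, outside the rule for named genes, completed the list with -0.26 (SE 0.076, edgeR adjusted p = 0.0147), and its adjusted p was 0.0509 and 0.0641 without TgAPPsweOCN;Ai9 libraries 2 and 3.

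Of the 49 proteins of the 60S subunit 2 rose and 5 fell, their median log2 fold change was 0.03, and with library size only 0 rose and 23 fell. The shares over all tested genes were 32.5% and 31.5% with TMM and 22.1% and 45.9% with library size only. Without control library 1 the count turned to 14 rises and 3 falls, with a median of 0.10, against 31.2% and 30.6% of all genes then tested. There was 1 rise without control library 2 or 3 or TgAPPsweOCN;Ai9 library 1, and there were 3 falls without library 2 or 3 of that genotype. Rpl10, which joins the subunit as one of the last proteins and is needed for the subunits to meet, had 895, 748 and 741 CPM in control and 662, 575 and 571 CPM in TgAPPsweOCN;Ai9 libraries. It fell by 0.40 on the log2 scale (SE 0.093, edgeR adjusted p = 0.00514) with fractional counts. Rpl3, a protein next to the site where peptide bonds are made, fell by 0.21 (SE 0.0711, edgeR adjusted p = 0.0269), and the adjusted p was 0.054 without control library 1, 0.0935 without TgAPPsweOCN;Ai9 library 2 and 0.102 without library 3 of that genotype. Rpl10a, outside the rule for named genes, had a log2 fold change of -0.22 (SE 0.076, edgeR adjusted p = 0.0302). Its adjusted p lay between 0.0572 and 0.124 when control library 1 or 2, or library 2 or 3 of the other genotype, was left out.

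The P-stalk, the arm of the 60S subunit that calls in elongation factors, is built by Rplp0 with Rplp1 and Rplp2. Rplp0, which is also a common reference gene for RT-PCR, had 1013, 891 and 883 CPM in control and 1153, 1018 and 1048 CPM in TgAPPsweOCN;Ai9 libraries. The lowest of the latter was just above the highest control. The log2 fold change was 0.21 (SE 0.077, edgeR adjusted p = 0.0421) with TMM and -0.01 with library size only, and it passed the test upward in 11 of 20 alternatives. Without control library 2 or 3 or TgAPPsweOCN;Ai9 library 1 or 3 the edgeR adjusted p was 0.129, 0.164, 0.105 and 0.0802. Rplp1 and Rplp2 overlapped between genotypes, with log2 fold changes of 0.12 (SE 0.0769, edgeR adjusted p = 0.189) and -0.14 (SE 0.108, edgeR adjusted p = 0.277). Without control library 1 Rplp1 rose by 0.19 (edgeR adjusted p = 0.0357), and Rplp2 was at -0.03. With library size only Rplp2 fell (-0.36, edgeR adjusted p = 0.0136). Rps27a and Fau, ribosomal proteins made as fusions with ubiquitin or a ubiquitin-like protein, did not pass the test either. Rps27a had a log2 fold change of -0.03 (SE 0.0967), and Fau, which the rule for members does not take in, had -0.12 (SE 0.0974). With library size only both fell.

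Of 11 members with known roles outside the ribosome or in disease, 1 rose and 2 fell, namely Rps27l, Rpl10 and Rps14, with library size only 1 rose and 8 fell, and without control library 1 2 of them rose and 2 fell. Over all tested genes, 32.5% rose and 31.5% fell with TMM, 22.1% and 45.9% with library size only, and 31.2% and 30.6% without control library 1. Rpl5 and Rpl11, which bind the p53 regulator Mdm2 when ribosome assembly is disturbed, had log2 fold changes of 0.05 (SE 0.0678) and -0.06 (SE 0.0903), and the values of both overlapped between genotypes. Rpl23, which binds Mdm2 as well, was at -0.05 (SE 0.0941). Rps19, mutated in Diamond-Blackfan anemia, had 197 to 262 CPM in control and 208 to 224 CPM in TgAPPsweOCN;Ai9 libraries (log2 fold change -0.06, SE 0.104). Rpl38, known for its part in translation of Hox mRNAs, was at 0.22 (SE 0.12, edgeR adjusted p = 0.139), and without control library 1 it rose by 0.35 (edgeR adjusted p = 0.0142). Rpl13a, part of a complex that silences inflammatory mRNAs, and Rps3, which also acts in DNA repair, were at -0.14 (SE 0.0995) and -0.17 (SE 0.0789). None of these members passed the test with TMM, whereas with library size only Rpl5, Rpl11, Rpl23, Rps19, Rpl13a and Rps3 fell, by 0.16 to 0.38 on the log2 scale. For 2 members the libraries varied so much that little can be read from the comparison. Rps6 lay between 7.28 and 19.1 CPM within the TgAPPsweOCN;Ai9 libraries (log2 fold change 0.06, SE 0.299), and Rpl29, outside the rule for named genes, had 410, 167 and 240 CPM in control and 390, 180 and 272 CPM in TgAPPsweOCN;Ai9 libraries (log2 fold change 0.04, SE 0.345, the largest standard error among the members). Both held fractional counts. For Rpl29 the order of the libraries by number was the same in both genotypes. With the replicate number in the model its log2 fold change was 0.07 (edgeR adjusted p = 0.38). Of the 19 members with fractional counts 15.8% passed the test (Rps16, Rpl10 and Rpl7l1), beside 16.1% of the 62 with whole counts and 64.0% of all tested genes.

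The other genes of ribosome making and translation were set beside the members as lists. Their counts are to be read against all tested genes, of which 32.5% rose and 31.5% fell with TMM and 22.1% and 45.9% with library size only. Of 59 genes for rRNA processing and ribosome assembly 45 rose and 1 fell (29 and 6 with library size only), and the median log2 fold change was 0.40. The single fall was lost without control library 1 or 2 or TgAPPsweOCN;Ai9 library 2 or 3. Pno1, needed to finish the 40S subunit, and Rrp12, which acts in subunit export, had the largest rises of the list at 1.14 (SE 0.0871, edgeR adjusted p = 8.31e-06) and 1.06 (SE 0.0795, edgeR adjusted p = 7.49e-06). For RNA polymerase I and its factors 5 of 19 rose and 10 fell (3 and 11 with library size only), with Rrn3, the initiation factor of this polymerase, at 0.99 (SE 0.0732) and Taf1d at -0.56 (SE 0.0615). Leaving out control library 2 gave 3 rises, and leaving out TgAPPsweOCN;Ai9 library 3 gave 6 falls. Mitochondrial ribosomal proteins, with 43 rises and 7 falls among 78, had a median of 0.24, but with library size only 22 rose and 23 fell, and the falls numbered 4 without control library 1 and 1 without TgAPPsweOCN;Ai9 library 3. The cytosolic members, with 3 rises and 10 falls among 81, had their median at -0.03 on the TMM scale. The difference between lists was not tested.

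**Figure D5:**
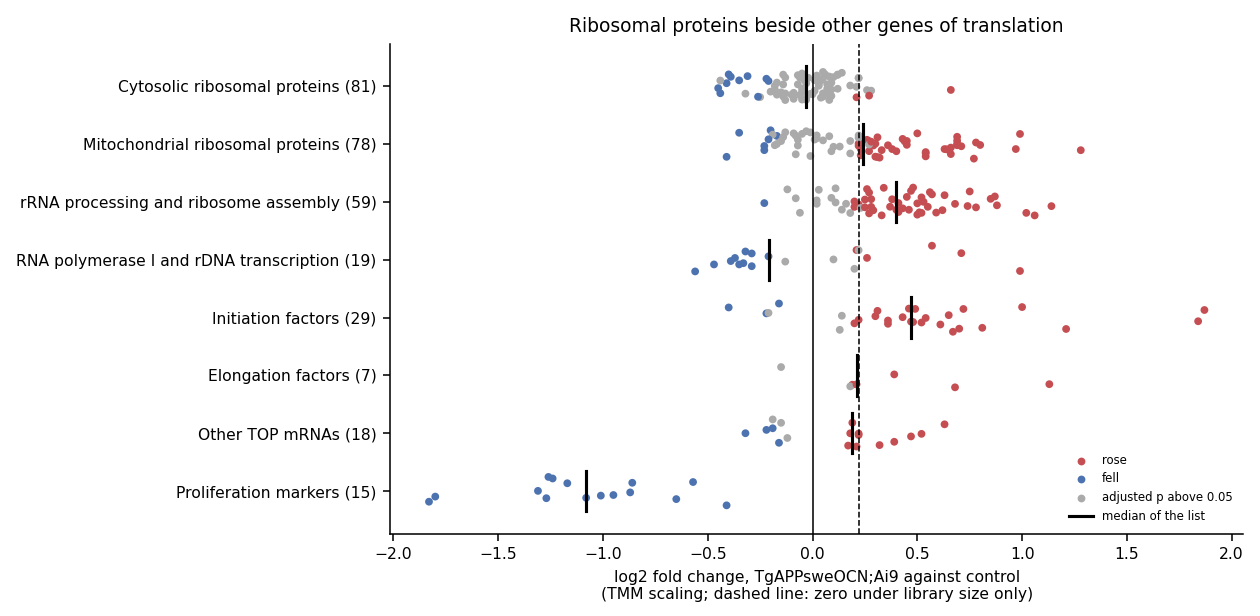
Log2 fold change of TgAPPsweOCN;Ai9 against control (horizontal axis, TMM scaling) for each gene of 8 lists, with numbers of tested genes in brackets, calls at an adjusted p at or below 0.05 in colour and medians as black bars. The median was -0.03 for cytosolic ribosomal proteins, 0.24 for mitochondrial ribosomal proteins, 0.40 for assembly genes and 0.47 for initiation factors; with zero at the dashed line (library size only), they were -0.25, 0.03, 0.19 and 0.26.

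Of 29 initiation factors 23 rose and 3 fell (17 and 4 with library size only), led by Eif4g2 at 1.87 (SE 0.0795, edgeR adjusted p = 3.50e-07) and Eif1ax at 1.84 (SE 0.0592, edgeR adjusted p = 1.05e-07). Of 7 elongation factors 5 rose and 0 fell, but with library size only 2 rose and 1 fell, without control library 3 there were 3 rises, and without TgAPPsweOCN;Ai9 library 1 there was 1 fall. Eef1a1 and Eef2, whose mRNAs carry the TOP motif as the members' do, had log2 fold changes of 0.19 (SE 0.0668, edgeR adjusted p = 0.0346) and 0.21 (SE 0.0578, edgeR adjusted p = 0.0107), which became -0.03 and -0.0015 with library size only. Eef1a1 lost its call in each fit without 1 library (edgeR adjusted p = 0.0567 to 0.121) but the one without TgAPPsweOCN;Ai9 library 2, and Eef2 lost it without control library 3 (edgeR adjusted p = 0.0701). Among 18 TOP mRNAs for proteins outside the members, 11 rose and 4 fell, against 3 and 7 with library size only. There were 6 rises without control library 3, and 2 falls without TgAPPsweOCN;Ai9 library 2 or 3. Pabpc1, the poly(A)-binding protein, rose under both scalings, by 0.47 and 0.25, and Tpt1 fell under both, at -0.32 and -0.54. Rack1, a protein bound to the 40S subunit, was at 0.18 (SE 0.0695, edgeR adjusted p = 0.0453) and at -0.03 with library size only, and its call was lost without control library 2 or 3 or TgAPPsweOCN;Ai9 library 1 or 3 (edgeR adjusted p = 0.0955 to 0.156). Npm1, which helps assembly in the nucleolus, was at 0.22 with TMM and 0.0041 with library size only.

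In the list for mTORC1, S6 kinase and control of TOP mRNAs, 7 of 22 rose and 5 fell (3 and 10 with library size only), and 4 rose without TgAPPsweOCN;Ai9 library 3. In all 54.5% of the list passed the test, against 64.0% of all tested genes. Larp1, which binds the TOP motif, rose by a log2 fold change of 0.66 (SE 0.06, edgeR adjusted p = 2.21e-05), and Eif4ebp1, a repressor of cap-dependent initiation, rose by 0.50 (SE 0.0902, edgeR adjusted p = 0.00122). Mtor was at 0.30 (SE 0.1, edgeR adjusted p = 0.0282), or 0.08 with library size only, and its call was lost without control library 1 or 2 or TgAPPsweOCN;Ai9 library 2 or 3 (edgeR adjusted p = 0.0534 to 0.106). Rps6kb1, the kinase that phosphorylates Rps6, was at -0.03 (SE 0.0604), and Myc, an activator of ribosomal protein genes, at 0.11 (SE 0.093), and neither passed the test with TMM. With library size only Rps6kb1 fell (-0.24, edgeR adjusted p = 0.00543), and Myc was at -0.11 without passing. The largest falls were those of Deptor, an inhibitor of mTOR, at -2.29 (SE 0.111) and Mxi1, a Myc antagonist, at -1.65 (SE 0.102). The part that the changes of the myeloid markers in both directions and the lower proliferation markers have in the members' values was not tested.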

How the data were processed

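RNA-seq (DNBSEQ-G400) covered 3 control and 3 TgAPPsweOCN;Ai9 libraries. Per the submitters' processing notes and the methods, the authors removed rRNA, adaptor and low-quality reads, mapped with HISAT2 2.0.4 to mm10, and used Bowtie2 2.2.5, RSEM 1.2.12 and DESeq2 1.4.5. The authors deposited estimated counts per gene, some fractional where reads fit several genes, and FPKM values for the same genes. A second deposited table, with the authors' log ratios and p-values, was not used. All columns of the count table matched a library.

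Estimated counts, for which a test on raw counts had been planned, were rounded to whole numbers and tested over all genes with the quasi-likelihood test of edgeR 4.0.16 in R 4.3.3 (genotype only; TMM and filterByExpr; Benjamini-Hochberg). Members were not adjusted separately. CPM values carry the TMM factors. Single values per library were compared with exact permutation tests, two-sided. Calls needed an adjusted p at or below 0.05. With 3 libraries a group, on simulated data over 12701 genes, 89 of 97 genes changed by 1 and 65 of 97 changed by 0.5 (log2) were called, with 5 false calls. Only these genes were changed in the simulation, whereas 64.0% of the tested genes were called in the data, so recovery here may differ. Alternatives used limma 3.58.1 on log2(FPKM + 1 or 0.1) and DESeq2 1.42.0, RLE factors, library size only, TMM without the members, other filters, a replicate block, a length correction (lowess span 0.3) and leaving out each library. Tables used Python 3.11.15, pandas 2.3.3, numpy 2.4.6 and scipy 1.17.1, and plots matplotlib 3.10.9. Coordinates are those of the GRCm38 assembly.

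The members and lists were chosen with earlier results of these data known. Named members are the 5 largest rises and 5 largest falls called with whole counts and at least 10 counts in every library, the 3 largest called changes with fractional counts, the 5 highest and 3 lowest by control FPKM, the P-stalk, fusion proteins, paralogs with their partners, and members with known roles outside the ribosome. Some genes under the rule are not reported here. From other lists come at most 2 rises and 2 falls each and 11 fixed genes. Non-coding snoRNA host genes had no entry among the genes used. Of 14 markers of other marrow cells, 8 were tested, of which 1 rose and 1 fell, and of 14 tested stromal markers 3 rose and 3 fell. Of 15 myeloid markers 5 rose and 8 fell.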

Additional observations from a re-analysis of the deposited data

How the results depend on the processing

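Members that rose numbered 3 and members that fell 10 with TMM. With library size only they were 1 and 47. DESeq2 gave 7 rises. With the replicate block there were 8 and 19, with the length correction 9 and 20, and with both 9 and 22. With limma, log2(FPKM + 1) and log2(FPKM + 0.1) each gave 1 and 44, and log2(FPKM + 1) with no filter 1 and 31. Leaving out 1 library gave 2 to 17 rises and 4 to 15 falls. Without control library 1 there were 17 rises, without TgAPPsweOCN;Ai9 library 2 or 3 there were 6 or 4 falls, and 15 falls without control library 3 or TgAPPsweOCN;Ai9 library 1. Chosen after seeing the data, leaving out both libraries numbered 1 gave 17 and 16, and scaling to the members' summed counts 7 and 7. The members' median of -0.03 became -0.25 with library size only and -0.24 with limma in each form. Calls that changed sign, where limma and library size only leave out the TMM factors, were Rplp0 at -0.01, Rpl7 at -0.21, Eef1a1 at -0.03, Eef2 at -0.0015 and Rack1 at -0.03 in library size only, where limma gave the same but for Eef2 (-0.001), and Rpl5 at -0.16 in library size only. Of 1020 values of 51 named genes over the alternatives, 790 kept side and direction, 55 lost and 85 gained a call, 69 changed sign uncalled and 21 changed sign with a call. Whether the replicate numbers pair the libraries was not settled. Same-number correlations of deviations over all genes were 0.0127, 0.00664 and 0.141, and over members 0.218, 0.684 and -0.236. Different-number correlations over members ran from -0.666 to 0.618. Such correlations leave out a shift common to all members, and library 1 was the highest for most members in both genotypes. With 3 libraries a group, changes under 0.5 (log2) among the members may be missed.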
